A study of Mus musculus with 8 samples.

Results

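The difference between 2 differences was measured here: how far the expression contrast between Tet1 KO and WT marrow in long-term hematopoietic stem cells (LT-HSC) departed from the same contrast in multipotent progenitors (MPP). All 8 RNA-seq libraries of the series entered 1 model with population, genotype and their interaction, and 16551 genes were tested of 17893 that both deposited tables list. There were 4 groups of 2 libraries, a WT and a KO group for each population. Per the labels, all cells were sorted from the bone marrow of 6-month-old mice of strain "CD57BL/6" that had received WT or Tet1 KO marrow 20 weeks earlier, so that transplantation is common to every group. Each library held poly(A) RNA from 10000 LT-HSC or 100000 MPP, read as 50 bp pairs. The sources used here do not give the sort gates, the deleted exons, the removal of host cells or whether the 2 libraries of a group came from separate animals. The p-values cover therefore only the spread between these libraries, which may be technical.

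TET1 is a dioxygenase that oxidises 5-methylcytosine in DNA, a step towards loss of the methyl mark. LT-HSC are the rare, mostly quiescent cells that can rebuild blood for life, and MPP are their more numerous, cycling offspring that have lost long-term self-renewal but keep the potential for all blood lineages. An interaction is on the log2 scale the KO over WT change in LT-HSC minus the KO over WT change in MPP. A positive value says that the change was further up (or less far down) in LT-HSC, and a negative value that it was further down (or less far up) there. A gene was called at a Benjamini-Hochberg adjusted p under 0.05 in edgeR's quasi-likelihood test, and levels are in CPM, the count scaled by library size with TMM factors.

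Tet1 itself did not pass the interaction test. It lies on chromosome 10 at 62267318 to 62361866 (mm9). Its CPM was 60.9 and 82.4 in LT-HSC WT, 61 and 72.8 in LT-HSC labelled KO, 101 and 111 in MPP WT and 64.9 and 72.3 in MPP labelled KO. The LT-HSC groups overlapped, unlike those of 65.5% of all tested genes, and the MPP groups did not, like those of 54.5%. The interaction was 0.53 (SE 0.23, edgeR adjusted p = 0.133), from a change of -0.10 in LT-HSC and -0.63 in MPP, and the edgeR adjusted p was 0.0051 with the replicate number as a block and 0.0317 without LT-HSC WT replicate 2. Counts over the whole gene remain where a deletion spares exons, so they do not check the genotype labels, and KO below means the libraries labelled so. Its relatives Tet2 (-0.29, edgeR adjusted p = 0.372) and Tet3 (-0.19, edgeR adjusted p = 0.51) were not called.

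Of the markers checked, LT-HSC libraries held more Procr, Slamf1, Fgd5, Mecom and Kit, and MPP libraries more Flt3, Cd48 and Cd34. Hlf and Ly6a, also known from LT-HSC, did not separate the populations: Hlf was 183 and 253 CPM in LT-HSC WT against 197 and 202 CPM in MPP WT, and Ly6a was 88.8 and 50.9 CPM in LT-HSC KO against 142 and 113 CPM in MPP KO. LT-HSC libraries had total counts of 4973882 to 5477741 over the joined genes, and MPP libraries of 11909633 to 12476617. Y-linked transcripts moved with the genotype label in both populations: the summed level of Ddx3y, Eif2s3y, Kdm5d and Uty was 144 and 170 CPM in LT-HSC WT, 12 and 14 CPM in LT-HSC KO, 166 and 175 CPM in MPP WT and 3.05 and 5.83 CPM in MPP KO. The labels do not state the sex of donors or hosts, and sex and genotype cannot be told apart. The LT-HSC KO libraries also carried counts spread along long genes. In genes over 100 kb that were under 1 CPM in MPP WT, the count per kb of gene was 0.353 and 0.309 in LT-HSC KO, 0.0231 and 0.0285 in LT-HSC WT and 0.0157 to 0.0297 in the 4 MPP libraries. At that density over every gene's span, these counts came to 6.18% and 5.82% of the LT-HSC KO totals and 0.114% to 0.51% elsewhere. Results are therefore given also with this density subtracted from each gene by its span, an alternative chosen after the data were seen. The density was taken from genes that had passed the filter on low counts. A gene under 1 CPM in MPP WT passes it mainly through other groups, so the density in LT-HSC KO, and what is subtracted there, may be too high.

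The interaction was called for 3663 genes, 22.1% of those tested, of which 2256 were positive (13.6%) and 1407 negative (8.5%). Over all genes tested the median interaction was 0.03. Among called genes the effect was larger in LT-HSC for 3375 and larger in MPP for 288. The KO over WT change alone passed the same test in 7163 genes in LT-HSC (43.3%) and in 500 in MPP (3.02%). Of the called genes, 3256 passed in LT-HSC only, 91 in MPP only, 150 in both and 166 in neither. Positive calls were the wider ones, with a median of 2.96, and 1515 of them exceeded 2 on the log2 scale. Negative calls had a median of -0.99, and 256 were below -2. Positive calls came from weakly expressed genes, at a median of 1.8 CPM in LT-HSC WT and 13.4 CPM in LT-HSC KO, and negative calls from well expressed ones, at a median of 50.2 CPM in LT-HSC WT and 27.8 CPM in LT-HSC KO.

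**Figure D1:**
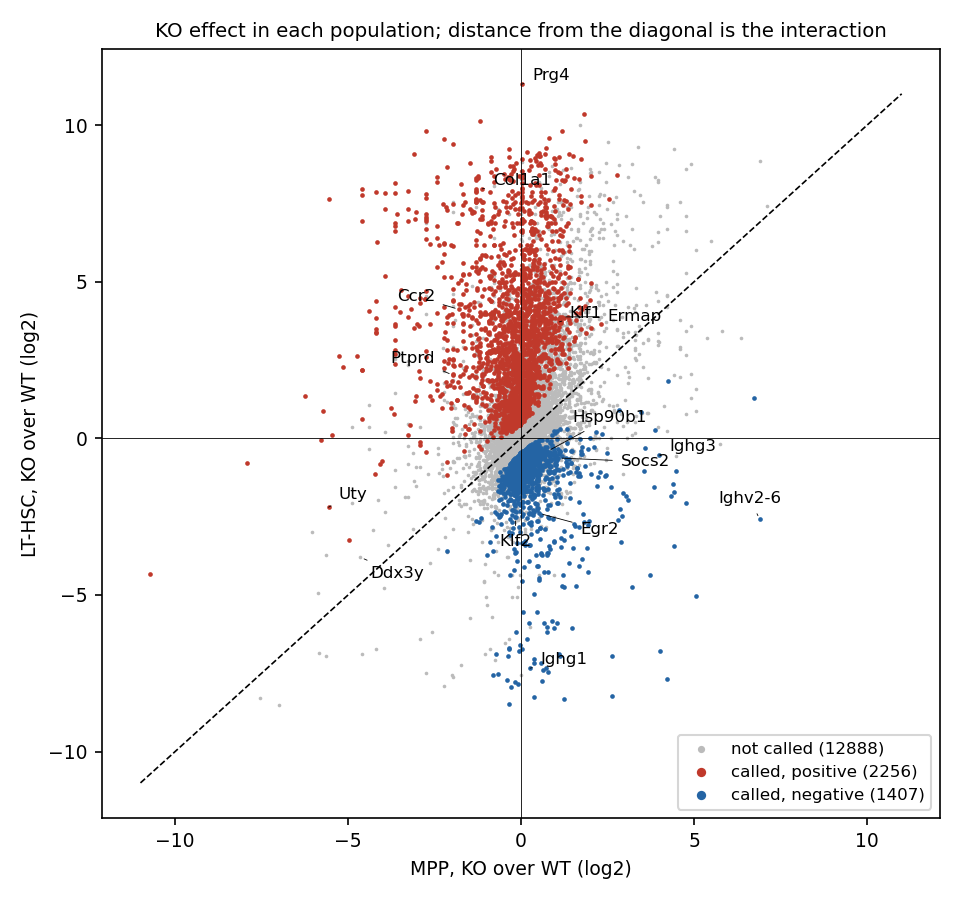
Change of each of the 16551 tested genes between KO and WT, as log2, in MPP (horizontal axis) and in LT-HSC (vertical axis), with the 2256 positive calls in red, the 1407 negative calls in blue and other genes in grey. Points on the dashed diagonal changed equally in both populations, and most coloured points lie along the vertical axis, where MPP changed little.

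The number of calls leaned on single libraries and on the scale. It was 6897 (3632 positive, 3265 negative) with the replicate number as a block, the all-gene base of every block count of a list below. It was 2141 without LT-HSC KO replicate 1, 1698 without MPP WT replicate 1, 1132 without MPP WT replicate 2, 1445 without MPP KO replicate 1 and 1898 without MPP KO replicate 2. Positive calls made up 61.6% of all calls, 73.9% (2623 against 926) when libraries were scaled over abundant genes, whose median interaction was -0.17, and 45.5% (1000 against 1198) with the density of long-gene counts subtracted.

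Erythroid genes gave the densest block of positive calls among the lists. Lists and their members, here and below, were chosen with earlier results of these data known. Of 36 tested members, 31 were positive and 0 negative, with a median interaction of 1.58, and the count was 24 to 31 with any 1 library left out and 31 with the background subtracted. Summed over the list, expression was 2799 and 2640 CPM in LT-HSC WT, 9982 and 9246 CPM in LT-HSC KO, 2004 and 1889 CPM in MPP WT and 2738 and 2549 CPM in MPP KO. In these sorted bulk samples, more cells of a type and more RNA per cell cannot be told apart, here and for every list below. Cldn13, a claudin gene of erythroid cells, read 0.733 and 1.16 CPM in LT-HSC WT, 38.7 and 48.8 CPM in LT-HSC KO, 4.28 and 5.53 CPM in MPP WT and 8.74 and 9.56 CPM in MPP KO. The LT-HSC groups lay far apart and the MPP groups a little apart. The interaction was 4.62 (SE 0.40, edgeR adjusted p = 0.000927), from changes of 5.52 in LT-HSC and 0.90 in MPP (edgeR adjusted p = 0.077 in MPP). Trim10 (4.14) and Epb4.2, the membrane skeleton protein 4.2 (3.28), were also among the members with the highest values.

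Klf1 and Ermap, chosen after their values were seen, rose in both populations and further in LT-HSC. Klf1, the transcription factor that drives red cell genes, stood at 7.7 and 11.6 CPM in LT-HSC WT, 121 and 133 CPM in LT-HSC KO, 13.6 and 11.9 CPM in MPP WT and 28.9 and 26 CPM in MPP KO. Its change was 3.72 in LT-HSC and 1.11 in MPP (interaction 2.61, SE 0.26, edgeR adjusted p = 0.00147). Ermap, which encodes an erythroid blood group antigen, rose by 3.88 and 1.17 (interaction 2.71, SE 0.16, edgeR adjusted p = 0.000187). Gata1, the master factor of the lineage, also chosen after its values were seen, differed less, at 0.74. Its edgeR adjusted p was 0.0289, and 0.0777 to 0.103 without LT-HSC KO replicate 2 or any 1 MPP library.

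The promoters below belong to 3 erythroid members and to Zfp36, an immediate early gene described further on, and are shown for the motifs counted after them. They are RefSeq promoters of build GRCm38.p6, from 250 bases before to 50 after the gene's start, each the only one listed for its gene, and capitals mark a GATAA motif (read as TTATC on the other strand) or, in Zfp36, a CArG box.
Klf1, chr8:84901732-84902031, plus strand: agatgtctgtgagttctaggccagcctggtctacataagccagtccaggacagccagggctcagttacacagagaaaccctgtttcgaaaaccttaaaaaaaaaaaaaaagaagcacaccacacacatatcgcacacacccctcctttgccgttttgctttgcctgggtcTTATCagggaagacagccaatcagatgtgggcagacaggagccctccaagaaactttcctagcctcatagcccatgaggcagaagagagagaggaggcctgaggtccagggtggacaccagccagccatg
Ermap, chr4:119189946-119190245, minus strand: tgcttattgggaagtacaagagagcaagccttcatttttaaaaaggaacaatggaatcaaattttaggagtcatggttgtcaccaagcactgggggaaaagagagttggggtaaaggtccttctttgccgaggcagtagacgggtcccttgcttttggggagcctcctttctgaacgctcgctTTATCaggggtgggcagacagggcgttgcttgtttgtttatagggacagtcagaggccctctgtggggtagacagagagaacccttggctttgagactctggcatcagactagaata
Trim10, chr17:36869324-36869623, plus strand: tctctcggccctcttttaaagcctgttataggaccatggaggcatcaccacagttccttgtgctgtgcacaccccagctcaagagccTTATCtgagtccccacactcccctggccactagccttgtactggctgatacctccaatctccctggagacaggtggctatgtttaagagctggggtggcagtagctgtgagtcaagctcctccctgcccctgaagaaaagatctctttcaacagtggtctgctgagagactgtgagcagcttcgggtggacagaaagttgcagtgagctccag
Zfp36, chr7:28379179-28379478, minus strand: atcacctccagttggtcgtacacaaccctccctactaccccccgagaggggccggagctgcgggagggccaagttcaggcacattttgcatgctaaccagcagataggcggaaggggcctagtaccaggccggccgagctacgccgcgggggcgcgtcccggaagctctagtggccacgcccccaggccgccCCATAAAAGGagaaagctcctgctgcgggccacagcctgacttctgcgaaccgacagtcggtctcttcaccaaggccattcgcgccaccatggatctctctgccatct

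Promoters were matched by symbol for 11304 of the 16551 tested genes. GATAA, on either strand, was found in 13 of the 26 matched erythroid promoters (50%) and in 17% of all matched promoters. The CArG box was found in 2 of the 30 matched immediate early promoters (6.67%), in 2 of the 26 erythroid ones (7.69%) and in 1.3% of all, so its share did not set these lists apart. GATAA was found in 4 of the 30 immediate early promoters (13.3%). Also counted was CACCC, in 69.2% of erythroid, 60% of immediate early and 62.4% of all matched promoters. In the same order, TGANTCA was in 11.5%, 3.33% and 5.31%, and TGACGTCA in 0%, 10% and 2.98%. The dinucleotide CG, the substrate of TET1 when methylated, occurred 3 times in the Klf1 promoter, 5 times in that of Ermap, 2 times in that of Trim10 and 21 times in that of Zfp36. Its median per promoter was 14 for positive calls, 21 for negative calls and 20 for all matched genes, and 15, 19 and 19 among genes with a span of up to 20 kb. A match describes the letters only.

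Heme synthesis and iron handling followed the erythroid list, with which they share members. Of 10 heme genes 7 were positive and 0 negative (7 and 1 with the replicate block), with a median of 1.16. Cpox, the coproporphyrinogen oxidase of the pathway, read 57.6 and 64.5 CPM in LT-HSC WT, 234 and 243 CPM in LT-HSC KO, 57.6 and 58.1 CPM in MPP WT and 92 and 84.2 CPM in MPP KO. It rose in both populations, and by 1.36 more in LT-HSC (SE 0.15, edgeR adjusted p = 0.00208). Uros, the uroporphyrinogen III synthase, had an interaction of 2.06. Of 11 iron genes 5 were positive and 0 negative (9 and 0 with the replicate block), with a median of 1.03. Tfrc, the transferrin receptor, read 106 and 103 CPM in LT-HSC WT, 446 and 451 CPM in LT-HSC KO, 178 and 188 CPM in MPP WT and 244 and 261 CPM in MPP KO. It rose in both populations, and by 1.64 more in LT-HSC (SE 0.13, edgeR adjusted p = 0.000686). Steap3, an endosomal iron reductase (2.01), and Slc40a1, the iron exporter ferroportin (2.53), were called likewise.

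Genes of the entry into S phase were mixed. Of 16 G1 and S phase cyclin and partner genes 4 were positive (25%) and 2 negative (12.5%), beside 13.6% and 8.5% over all genes. Their median was 0.05 beside 0.03 over all genes. The counts were 2 and 0 without LT-HSC KO replicate 1 or any 1 MPP library, 3 and 1 without LT-HSC KO replicate 2, and 2 and 2 without LT-HSC WT replicate 1. Ccne1, which encodes cyclin E1, stood at 7.52 and 8.47 CPM in LT-HSC WT, 93.1 and 84.3 CPM in LT-HSC KO, 17.9 and 18.9 CPM in MPP WT and 26.1 and 24.1 CPM in MPP KO. The LT-HSC KO level was above that of every MPP library. The interaction of Ccne1 was 3.02 (SE 0.20, edgeR adjusted p = 0.000285), and that of Ccne2, encoding cyclin E2, was 2.02 (SE 0.22, edgeR adjusted p = 0.00207). The other calls were smaller, with Ccna2 (0.63), cyclin A2, and E2f2 (0.54), an activating cell cycle factor, positive and Ccnd1 (-0.89), cyclin D1, and Cdk6 (-0.47), its kinase partner, negative. E2f2 and Cdk6 were chosen after their values were seen. Ccna2 was called only without LT-HSC KO replicate 2 among the 8 fits that left out a library, and the edgeR adjusted p of Ccnd1 went from 0.0212 to between 0.057 and 0.0953 without LT-HSC KO replicate 1 or any 1 MPP library. Of 31 DNA replication genes 5 were positive and 0 negative, a share near the 13.6% over all genes, and 18 and 2 with the replicate block, with a median of 0.33. Mcm10 (1.22) and Gins1 (1.21), both of the replication fork, kept the call in all 8 fits that left out a library. The list's positive count was 3 without MPP WT replicate 1 or MPP KO replicate 2, 2 without MPP WT replicate 2 or MPP KO replicate 1, and 11 with abundant-gene scaling. Among 60 replication-dependent histone genes 11 were positive (18.3%, beside 13.6% over all genes), among them Hist1h1b (1.57), and 0 negative (24 and 4 with the block). That count was 18 with abundant-gene scaling, 6 without LT-HSC KO replicate 2, 5 without MPP WT replicate 1 or MPP KO replicate 2 and 4 without MPP WT replicate 2 or MPP KO replicate 1. Mitosis genes gave 2 positive and 1 negative call of 29 (6 and 4 with the block). Their shares of 6.9% and 3.45% were below the 13.6% and 8.5% over all genes. The calls of the main fit were Aurka (1.04) and Ccnb1 (1.09) against Kif23 (-0.49). Aurka, a mitotic kinase, kept its call without any 1 library, while Ccnb1, cyclin B1, kept it only without LT-HSC WT replicate 2 or LT-HSC KO replicate 1 and Kif23, a spindle motor, only without LT-HSC WT replicate 2.

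**Figure D2:**
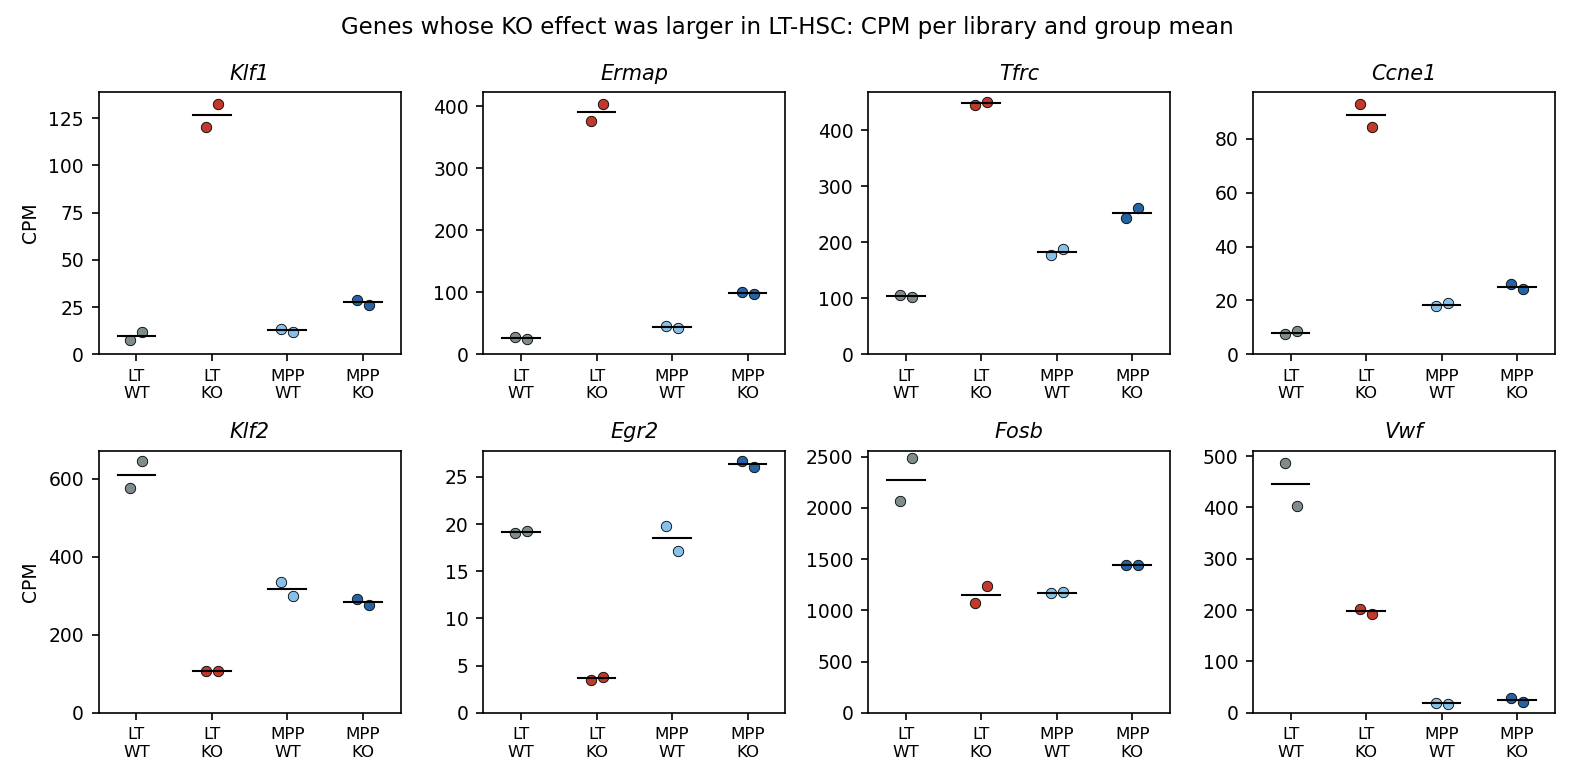
Level in CPM (vertical axis, from 0) of 8 genes in each library, with 2 points per group and a line at the group mean, for LT-HSC and MPP, WT and KO. The erythroid, iron and cyclin genes in the upper row are highest in LT-HSC KO, while Klf2, Egr2, Fosb and Vwf are lower in KO than in WT in LT-HSC and changed in MPP in none of the 4 by the test.

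Immediate early genes, which are switched on within minutes by growth factors, stress or tissue handling, were the clearest negative group. Of 36 members 26 were negative and 0 positive, with a median of -0.80. The count was 16 to 30 with 1 library left out, with 16 reached without MPP WT replicate 1, MPP WT replicate 2 or MPP KO replicate 1. Their summed level was 24672 and 28081 CPM in LT-HSC WT, 14329 and 15956 CPM in LT-HSC KO, 17231 and 17642 CPM in MPP WT and 18551 and 19061 CPM in MPP KO. Klf2, a transcription factor tied to quiescence (chromosome 8, 74842932 to 74845555, mm9), read 576 and 645 CPM in LT-HSC WT, 108 and 107 CPM in LT-HSC KO, 334 and 299 CPM in MPP WT and 292 and 276 CPM in MPP KO. Its fall by 2.50 in LT-HSC stood against -0.16 in MPP, an interaction of -2.35 (SE 0.15, edgeR adjusted p = 0.000285). Egr2, an early response zinc finger factor, stood at 19.1 and 19.3 CPM in LT-HSC WT, 3.45 and 3.84 CPM in LT-HSC KO, 19.8 and 17.2 CPM in MPP WT and 26.6 and 26 CPM in MPP KO (interaction -2.90, SE 0.25, edgeR adjusted p = 0.000901). Klf4 (-1.85) and Gadd45b, a DNA damage response gene (-1.88), completed the 4 members of this list with the widest values that the rule named. Among AP-1 genes, chosen after their values were seen, Jun was at -1.44, Fosb at -1.28 and Fos at -1.08, and Zfp36, an mRNA decay factor, at -1.05.

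NF-kB genes pointed the same way. Brakes of the cell cycle and p53 targets were mixed, with 16 of 24 not called and 10 of 24 at a positive estimate. Their shares were 25% negative and 8.33% positive, beside 8.5% and 13.6% over all genes. Of 23 NF-kB genes 8 were negative and 0 positive (14 and 0 with the replicate block, and 5 negative with abundant-gene scaling or with the background subtracted). Their negative count was 3 without MPP WT replicate 1, MPP WT replicate 2 or MPP KO replicate 1, 4 without MPP KO replicate 2 and 5 without either LT-HSC KO replicate. Tnfaip3, the feedback inhibitor A20, fell by 1.46 in LT-HSC and stood at -0.34 in MPP (interaction -1.11, SE 0.14, edgeR adjusted p = 0.00304). Nfkbia (-1.09), the inhibitor of NF-kB, and Bcl3 (-1.33), a nuclear partner of it, were called likewise. Cdkn1a, the p21 inhibitor of cyclin-dependent kinases, read 249 and 303 CPM in LT-HSC WT, 63.7 and 80.3 CPM in LT-HSC KO, 226 and 231 CPM in MPP WT and 147 and 155 CPM in MPP KO. It was lower in KO in each population without overlap, and by 1.35 more in LT-HSC (SE 0.20, edgeR adjusted p = 0.00426). Of the 24 genes of the list of brakes and p53 targets, 6 were negative and 2 positive, and the negative count was 2 without MPP WT replicate 2 or MPP KO replicate 1 and 3 without MPP WT replicate 1.

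Megakaryocyte genes, several of which mark a platelet-biased share of LT-HSC, gave 10 negative and 0 positive calls of 19 (12 and 1 with the replicate block), with a median of -0.73. The negative count was 4 to 8 with any 1 library left out, 4 without MPP WT replicate 2, 5 without MPP WT replicate 1 or MPP KO replicate 1 and 6 without LT-HSC KO replicate 1, and 6 with the background subtracted. Vwf, the von Willebrand factor gene, stood at 487 and 404 CPM in LT-HSC WT, 203 and 192 CPM in LT-HSC KO, 19.3 and 17.5 CPM in MPP WT and 28.7 and 20.8 CPM in MPP KO. Its interaction was -1.60 (SE 0.23, edgeR adjusted p = 0.00422). Pf4, platelet factor 4 (-1.97), and Gp1bb, a subunit of the platelet receptor for von Willebrand factor (-2.62), kept the call in all 8 fits without a library.

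LT-HSC identity genes were mixed. Of 30 members 9 were negative and 0 positive, with a median of -0.47, 13 negative and 3 positive with the replicate block, and 4 to 9 negative with a library left out (4 without MPP WT replicate 1 or MPP KO replicate 2 and 5 without MPP WT replicate 2). The list holds Vwf and also Mycn, described below. The 5 genes named next were chosen after their values were seen. Fgd5, whose product marks LT-HSC, was at -1.30 (SE 0.20, edgeR adjusted p = 0.00542), with 83.6 and 80.3 CPM in LT-HSC WT, 40.7 CPM in both LT-HSC KO libraries, 13.8 and 12.5 CPM in MPP WT and 14.3 and 17.8 CPM in MPP KO. Procr (-0.42), Mecom (0.04) and Hlf (0.43), which also mark these cells, were not called, though with the replicate block Hlf was (edgeR adjusted p = 0.0124). Flt3, a receptor that marks MPP, was positive, at 23.3 and 23.3 CPM in LT-HSC WT, 41.4 and 37.1 CPM in LT-HSC KO, 367 and 345 CPM in MPP WT and 390 and 348 CPM in MPP KO (interaction 0.70, SE 0.16, edgeR adjusted p = 0.0191). It was the only positive call among 16 MPP and early lymphoid priming genes, of which 4 were negative (3 and 5 with the replicate block). Of the other MPP markers checked, Cd48 was negative (-1.23, edgeR adjusted p = 0.0267) and Cd34 stood at -0.13.

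Adhesion and antigen presentation also leaned negative. Of 22 homing and adhesion genes 8 were negative and 0 positive (10 and 2 with the replicate block, 3 to 8 negative with a library left out, 3 without MPP KO replicate 1 and 4 without either MPP WT replicate). Itgb2 and Itgal, the chains of the integrin LFA-1, had interactions of -2.67 (SE 0.19, edgeR adjusted p = 0.000371) and -2.61 (SE 0.36, edgeR adjusted p = 0.00358). Itgb2 stood at 86.4 and 78.8 CPM in LT-HSC WT, 15.8 and 19.8 CPM in LT-HSC KO, 56.8 and 55.3 CPM in MPP WT and 78.4 and 75.2 CPM in MPP KO. Of 21 MHC genes 7 were negative and 0 positive (15 and 0 with the block), with a median of -0.70. Among them Tap1 (-0.88), the peptide transporter, kept its call in all 8 fits without a library, while the list's count was 1 without MPP WT replicate 2 or MPP KO replicate 1, to 2 without MPP WT replicate 1 and to 4 without MPP KO replicate 2, and was 11 without LT-HSC WT replicate 2 and 4 with the background subtracted. Interferon response genes gave 10 negative and 2 positive calls of 41 (15 and 4 with the block), and 2 negative without MPP WT replicate 2, 3 without MPP KO replicate 1 and 5 without LT-HSC KO replicate 2, MPP WT replicate 1 or MPP KO replicate 2 (6 with the background subtracted). Among 17 T and NK genes, of which 5 were negative and 2 positive, Nkg7, a gene of cytotoxic granules, read 61.1 and 59.9 CPM in LT-HSC WT, 6.9 and 7.3 CPM in LT-HSC KO, 113 and 120 CPM in MPP WT and 94.8 and 93.7 CPM in MPP KO (interaction -2.78, SE 0.16, edgeR adjusted p = 0.000187).

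The largest positive values belonged to genes that LT-HSC WT hardly held, some of them markers of other cells. Prg4, which encodes the joint lubricant lubricin, had 0 counts in LT-HSC WT and 394 in LT-HSC KO, at least 130.5-fold higher against 3 counts over the group, and 18 counts in each MPP group (edgeR adjusted p = 0.00214 for the interaction). Col1a1, the collagen I gene of bone, stood at 0.733 and 1.35 CPM in LT-HSC WT, 306 and 218 CPM in LT-HSC KO, 0.335 and 0.251 CPM in MPP WT and 0.0848 and 0.169 CPM in MPP KO (edgeR adjusted p = 0.00243). Of 16 bone and stromal genes 8 were positive and 1 negative, and their summed level was 125 and 142 CPM in LT-HSC WT, 835 and 682 CPM in LT-HSC KO, 293 and 306 CPM in MPP WT and 320 and 336 CPM in MPP KO. The positive count was 4 without MPP WT replicate 1, MPP WT replicate 2 or MPP KO replicate 1 and 5 without MPP KO replicate 2. The negative member was Spp1, osteopontin, with 20 counts in LT-HSC WT and 0 in LT-HSC KO (at least 6.71-fold lower). The part of stromal RNA in these results was not tested. Among 23 granulocyte and monocyte genes 5 were positive and 2 negative (6 and 4 with the replicate block). These shares were 21.7% and 8.7%, beside 13.6% and 8.5% over all genes. Their summed level was 389.8 and 292 CPM in LT-HSC WT, 296 and 259 CPM in LT-HSC KO, 1795 and 1729 CPM in MPP WT and 2874 and 2766 CPM in MPP KO. Ngp (at least 27.8-fold higher in LT-HSC KO) and S100a8 (at least 19.9-fold) had 0 counts in LT-HSC WT. Bmpr1a, a BMP receptor (at least 26.5-fold), and Tm7sf2, a sterol reductase (at least 21.5-fold), likewise had 0 counts there, and the call of Bmpr1a was lost with the background subtracted (edgeR adjusted p = 0.0538).

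Positive calls rose in frequency with the span of the gene. They made up 5.73% of genes of 0 to 5 kb, 15.8% of those of 50 to 100 kb and 40.4% of those of 200 to 500 kb. Over 500 kb they made up 68% (140 of 206, with 0 negative, and 168 and 6 with the replicate block). With the background subtracted, 22 genes over 500 kb were called positive and 17 negative, of 182 tested. Against the main fit, these negative calls arose only with the subtraction. At 200 to 500 kb, negative calls went from 33 of 790 genes to 87 of 641 with the background subtracted. Rbms3, an RNA-binding protein gene over a span of 1057 kb, read 1.1 and 0.963 CPM in LT-HSC WT, 66.6 and 52.8 CPM in LT-HSC KO, 1.09 and 1.34 CPM in MPP WT and 0.679 and 0.846 CPM in MPP KO. It did not pass the filter on low counts once the background was subtracted. Dscam, a neural cell adhesion gene over 579 kb, was the exception among the 4 named genes of this span: its edgeR adjusted p was 0.00659 after subtraction. Of all 2256 positive calls 941 (41.7%) were positive calls after subtraction as well, 127 had a negative estimate and 425 were not tested, and of the 1407 negative calls 920 (65.4%) were also called then. A pair of unnamed loci took a large share of the LT-HSC KO counts: Gm16869, chosen after its values were seen, held 4.1% and 4.47% of them, 0.0763% and 0.0814% of LT-HSC WT and at most 0.00208% of an MPP library, and Gm10800 rose from 946 and 1053 CPM to 29942 and 42299 CPM. The part of these counts, and of genomic DNA or unspliced RNA in general, was not tested.

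**Figure D3:**
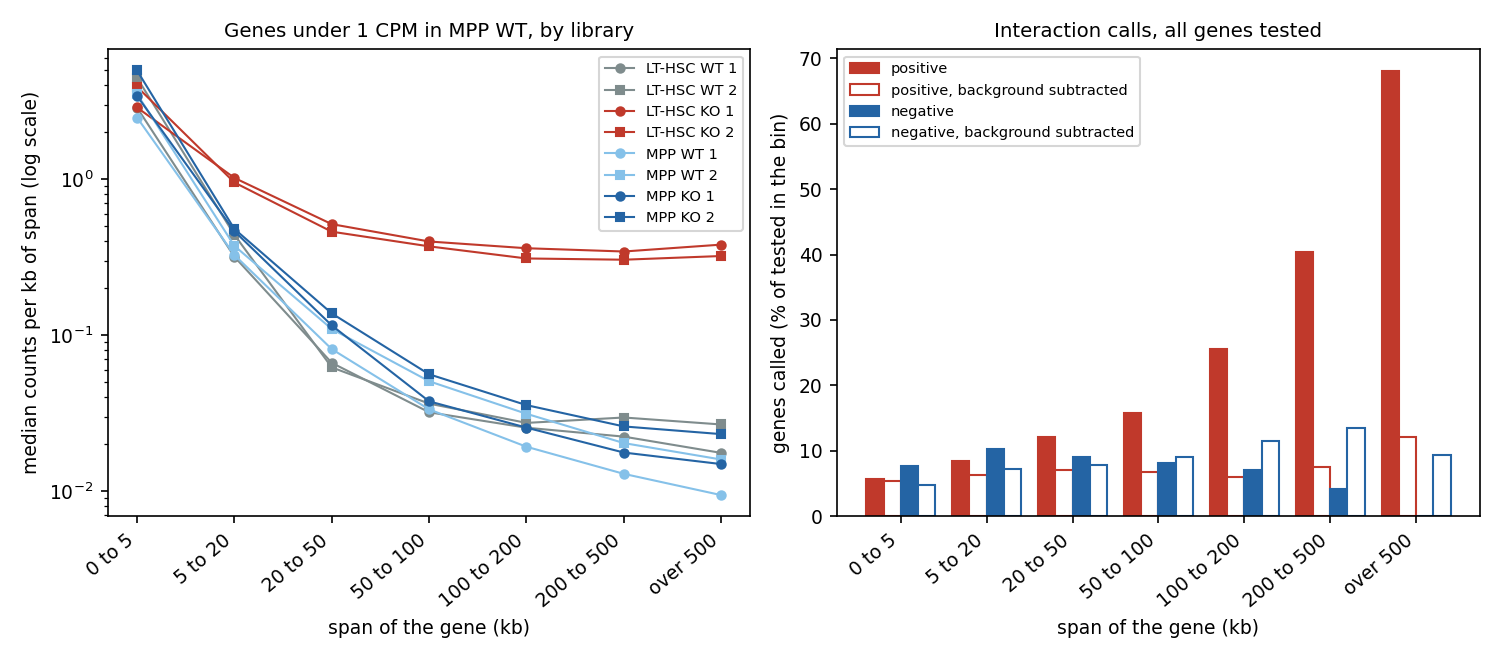
Left: median counts per kb of gene span (log scale) against the span class in kb, for tested genes under 1 CPM in MPP WT, with 1 line per library. Genes this low in MPP WT passed the filter on low counts mainly through other groups. From 50 kb on the 2 LT-HSC KO libraries stay between 0.304 and 0.398 while the other 6 are at 0.0561 or below. Right: percent of tested genes called positive or negative in each span class, as deposited (filled) and with the background subtracted (open).

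Immunoglobulin genes and genes of antibody-secreting cells leaned negative, and some of them had the larger effect in MPP. Of 288 genes with the larger effect there (1.74% of tested), 23 (7.99%) were immunoglobulin genes, which are 0.955% of genes tested. In all, 50 immunoglobulin genes were negative and 7 positive. With 23 larger in MPP, most of these calls had the larger fitted effect in LT-HSC, where counts of several were few. Summed over variable segments, levels overlapped in LT-HSC, at 276 and 149 CPM in WT and 327 and 204 CPM in KO. In MPP the sum was 16915 and 14251 CPM in WT and 44651 and 35651 CPM in KO. Of 18 genes of antibody-secreting cells 12 were negative and 0 positive, with a median of -1.49 and 7 to 12 negative calls with a library left out (7 without MPP WT replicate 1, 8 without LT-HSC KO replicate 1, MPP WT replicate 2 or MPP KO replicate 1). Their summed level was 701 and 583 CPM in LT-HSC WT, 565 and 512 CPM in LT-HSC KO, 11060 and 12316 CPM in MPP WT and 36432 and 39022 CPM in MPP KO. The summed level of B lineage genes in MPP was 11424 and 11613 CPM in WT and 22681 and 22496 CPM in KO, but their interactions were mixed, with 6 positive and 4 negative calls of 18. Their median was 0.82 and -0.57 with the background subtracted, which left 3 positive and 5 negative calls, and the negative count was 2 without LT-HSC KO replicate 2, MPP WT replicate 1, MPP WT replicate 2 or MPP KO replicate 1. The part of antibody-secreting cells among the sorted MPP was not tested. Ighg3, the IgG3 constant region, stood at 2.2 and 2.7 CPM in LT-HSC WT, 1.45 and 1.92 CPM in LT-HSC KO, 90.9 and 86.1 CPM in MPP WT and 1542 and 1263 CPM in MPP KO (interaction -4.52, SE 0.35, edgeR adjusted p = 0.000514). Ighg1, the IgG1 constant region, had the other pattern: 115 and 71.3 CPM in LT-HSC WT, 0.182 and 0.96 CPM in LT-HSC KO, 401 and 332 CPM in MPP WT and 487 and 391 CPM in MPP KO (interaction -7.60, SE 0.54, edgeR adjusted p = 0.000371). Among 144 variable segments 42 were negative and 7 positive (60 and 14 with the replicate block, and 4 positive without LT-HSC WT replicate 2 or any 1 MPP library), and 18 to 46 negative with a library left out (18 without LT-HSC WT replicate 1, 23 without LT-HSC KO replicate 2, MPP WT replicate 2 or MPP KO replicate 1, and 24 without LT-HSC KO replicate 1). Ighv2-6 rose from 18.1 and 13.6 CPM to 2194 and 1586 CPM in MPP and fell from 13.4 and 3.47 CPM to 1.45 and 1.34 CPM in LT-HSC. Segments such as Ighv1-5 and Ighv2-6-8, with 3 and 4 counts in LT-HSC WT and 0 in LT-HSC KO, have no measurable LT-HSC fold and kept the call in 1 of 8 fits without a library. Some variable segments are near-identical copies, so counts may be shared among those.

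A change in opposite directions, each past the threshold in its own population, was found in 60 called genes (0.363% of tested). In 42 the LT-HSC change was down and the MPP change up, and 8 of these were immunoglobulin genes. In 18 it was the reverse. With the replicate block the number was 411, and it was 9, 8, 6 and 13 without MPP WT replicate 1, MPP WT replicate 2, MPP KO replicate 1 and MPP KO replicate 2. It was also 33 and 30 without LT-HSC KO replicate 1 and replicate 2, and 95 without LT-HSC WT replicate 2. Of the 18 genes of antibody-secreting cells 5 were among the 60, Xbp1 and Sdc1 being members of both. Hsp90b1, described next, was among the 60 but is not on that list. Hsp90b1, the chaperone of the endoplasmic reticulum GRP94, read 254 and 226 CPM in LT-HSC WT, 181 and 178 CPM in LT-HSC KO, 436 and 410 CPM in MPP WT and 728 and 699 CPM in MPP KO (interaction -1.17, SE 0.14, edgeR adjusted p = 0.00273). Xbp1, the factor that expands the secretory pathway and was chosen after its values were seen, fell by 0.65 in LT-HSC and rose by 0.94 in MPP (interaction -1.59, SE 0.17, edgeR adjusted p = 0.00189). Sdc1, which encodes the plasma cell marker CD138, had 32 and 4 counts in LT-HSC WT and KO and 842 and 1957 counts in MPP WT and KO.

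Of 30 LT-HSC identity genes 2 were among the 60, and of 35 cytokine receptor and Socs genes also 2. Mycn, a MYC family factor, stood at 60.5 and 75.3 CPM in LT-HSC WT, 41.4 and 42.8 CPM in LT-HSC KO, 9.81 and 8.71 CPM in MPP WT and 19.8 and 18.3 CPM in MPP KO (interaction -1.73, SE 0.22, edgeR adjusted p = 0.0028). Socs2, a cytokine feedback inhibitor, fell by 0.63 in LT-HSC and rose by 1.07 in MPP (interaction -1.70, SE 0.24, edgeR adjusted p = 0.00371). All 4 groups were apart for both genes, and the levels in LT-HSC KO stayed above those in MPP KO. KO and WT libraries were apart in both populations in all 60 opposite genes. That follows largely from their choice by tests on these same libraries, so it adds no evidence for them. Over all tested genes they were apart in 65.5% in LT-HSC and in 54.5% in MPP.

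The reverse pattern, up in LT-HSC and down in MPP, was led by genes with few LT-HSC counts or wide spans. Ptprd, a receptor phosphatase over 2271 kb, stood at 40.7 and 33.5 CPM in LT-HSC WT, 154 and 146 CPM in LT-HSC KO, 54.6 and 38.5 CPM in MPP WT and 12.8 and 11 CPM in MPP KO. Its interaction of 3.98 (SE 0.27, edgeR adjusted p = 0.000285) fell to 1.38 with the background subtracted (edgeR adjusted p = 0.0919). Ccr2, the chemokine receptor of monocytes, had 1 count in LT-HSC WT and 20 in LT-HSC KO, a ratio of 19.9 (95% exact interval 3.18 to 824), and fell in MPP from 160 and 185 CPM to 46.4 and 53.4 CPM. Tex21 rose from 4.22 and 3.66 CPM to 13.8 and 10.4 CPM in LT-HSC and fell from 11.8 and 9.63 CPM to 4.58 and 3.55 CPM in MPP, with an interaction of 3.01 as deposited and 2.83 after subtraction.

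**Figure D4:**
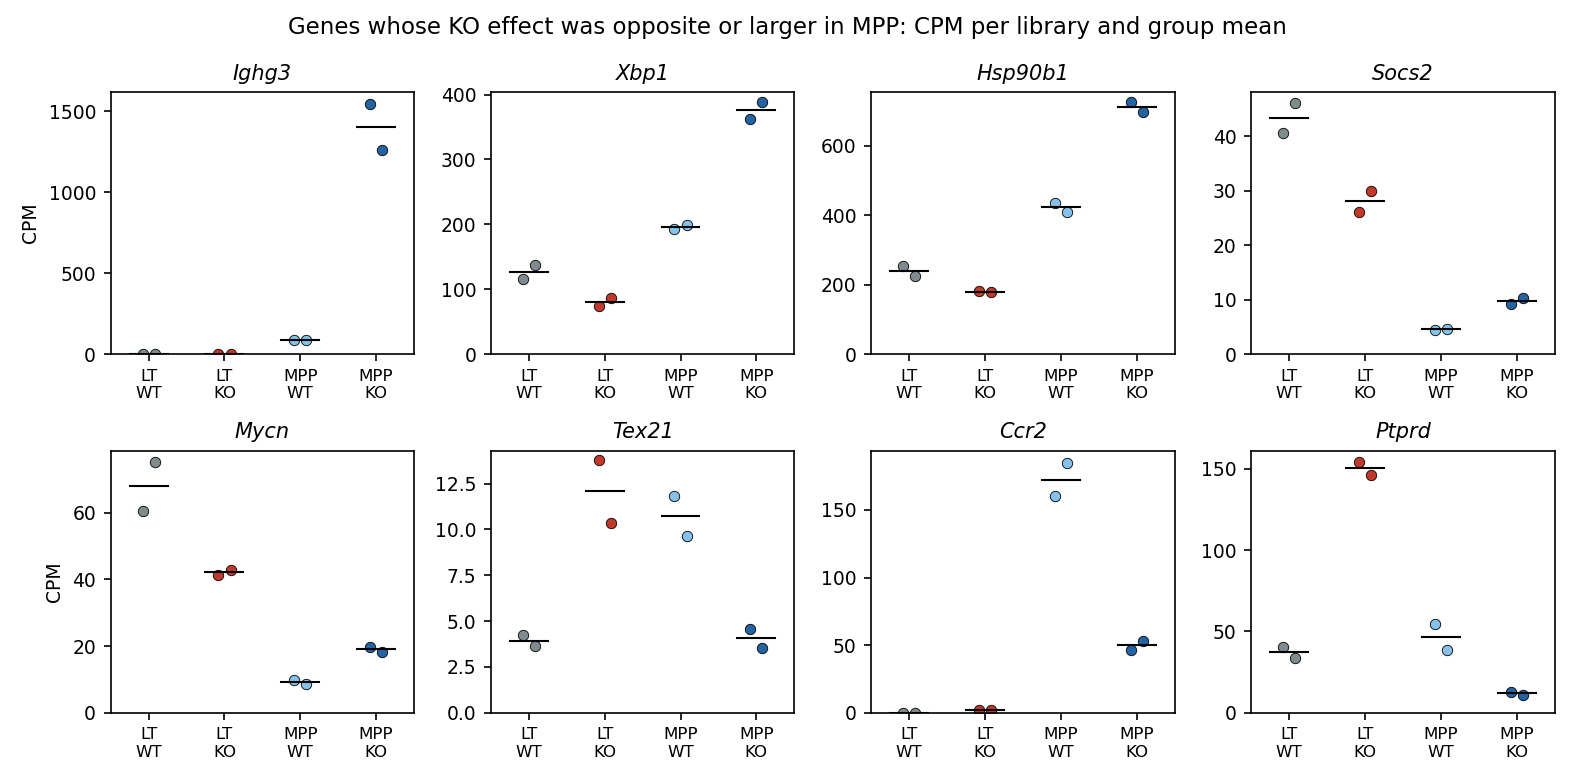
Level in CPM (vertical axis, from 0) of 8 genes in each library, with 2 points per group and a line at the group mean. Xbp1, Hsp90b1, Socs2 and Mycn are lower in KO in LT-HSC and higher in KO in MPP, Ighg3 is near 0 in LT-HSC, and Ccr2, Ptprd and Tex21 are higher in KO in LT-HSC and lower in KO in MPP.

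The Y-linked genes differed in how complete their loss was. Kdm5d, a histone demethylase gene, read 18.5 and 23.1 CPM in LT-HSC WT, 0.908 and 1.15 CPM in LT-HSC KO, 26 and 23.6 CPM in MPP WT and 0 in both MPP KO libraries, so it was at least 195-fold lower in MPP KO and 20.2-fold lower in LT-HSC KO. Uty, its demethylase relative, was called as well (3.37, SE 0.31, edgeR adjusted p = 0.00106), and Ddx3y and Eif2s3y were not. With the background subtracted neither Uty nor Kdm5d was called (edgeR adjusted p = 0.0849 and 1).

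Ribosomal protein and oxidative phosphorylation genes had few calls beside the 22.1% over all genes. Ribosomal protein genes gave 0 calls of 81 in edgeR (1 gene at an unadjusted p under 0.05), 0 in DESeq2, 1 in limma-voom and 2 positive and 8 negative with the replicate block. Their median of -0.09 turned to 0.04 under abundant-gene scaling and was -0.44 without LT-HSC KO replicate 2 and 0.27 without LT-HSC WT replicate 2. Oxidative phosphorylation genes gave 4 positive and 1 negative calls of 81 (12 and 4 with the block), with a median of -0.01 that became 0.14 on that scale, and the positive count was 2 without MPP WT replicate 2 or MPP KO replicate 1. Ndufs1, a complex I subunit, was at 1.54. Mitochondrial ribosomal protein genes gave 6 positive and 0 negative calls of 73 (14 and 4 with the block), and 1 to 3 positive without LT-HSC KO replicate 1 or any 1 MPP library and 11 without LT-HSC WT replicate 1. Polycomb genes gave 2 positive (7.14%) and 4 negative (14.3%) calls of 28, beside 13.6% and 8.5% over all genes (2 and 12 with the block), and 0 to 1 negative without LT-HSC KO replicate 1 or any 1 MPP library and 7 without LT-HSC WT replicate 2. Ezh1, a Polycomb methyltransferase, was among the negative ones at -1.01, with an edgeR adjusted p of 0.0107 that was 0.0588 without MPP WT replicate 2 and 0.0587 without MPP KO replicate 1. Of 18 TET and DNA methylation genes, Mbd4, a glycosylase that repairs deaminated methylcytosine, and Mbd2, a reader of methylated DNA, were positive and Gadd45b was negative (3 positive and 3 negative with the block). Mbd4 rose by 1.13 in LT-HSC and stood at -0.07 in MPP, and Mbd2 rose by 0.89 and stood at 0.23. Both calls were lost without MPP WT replicate 2 (edgeR adjusted p = 0.0634 and 0.0824) or MPP KO replicate 1 (0.056 and 0.062), and that of Mbd2 also without MPP WT replicate 1 (0.0521) or MPP KO replicate 2 (0.0613).

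**Figure D5:**
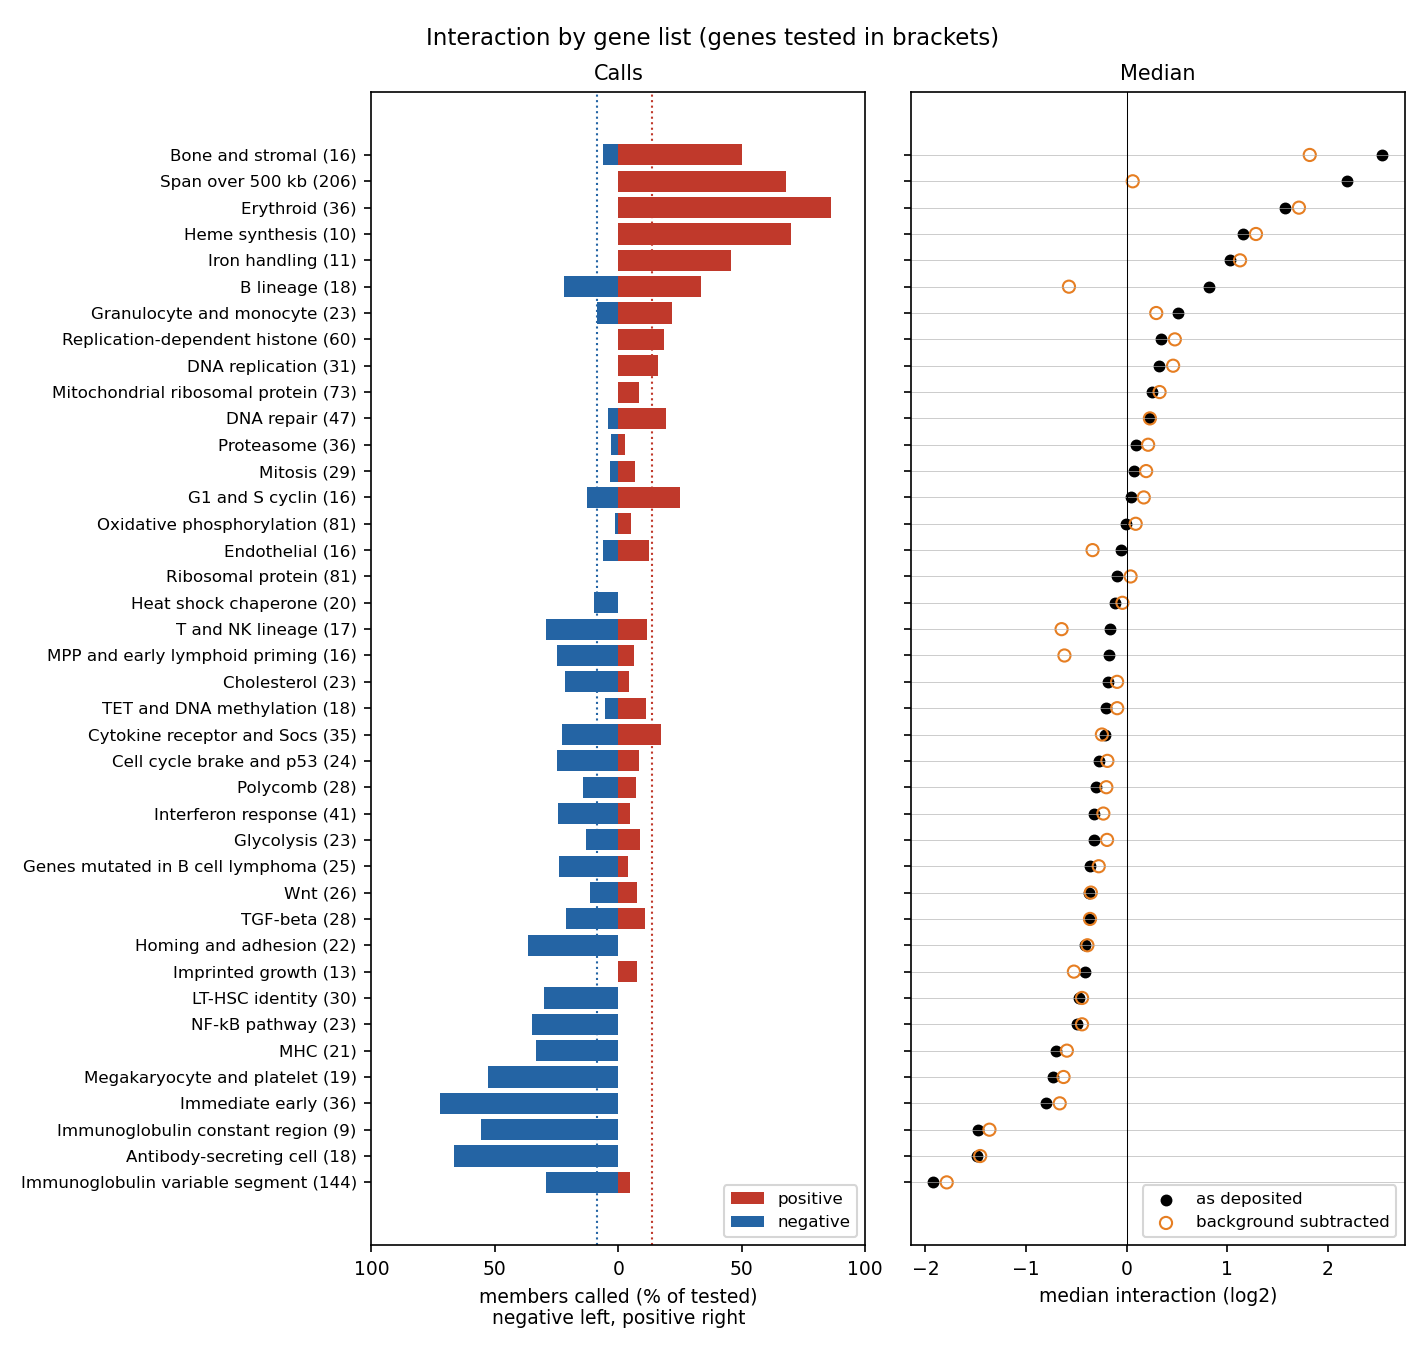
Left: percent of tested members called positive (red, right) and negative (blue, left) in each gene list, with dotted lines at the share over all genes tested, 13.6% and 8.5%. Right: median interaction (log2) of each list as deposited (filled) and with the background subtracted (open), where the erythroid list stays at 1.58 and 1.71 and the genes over 500 kb move from 2.19 to 0.06.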

How the data were processed

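RNA was sequenced from 8 libraries, 2 per group of LT-HSC and MPP, WT and KO. The submitters' processing notes name CASAVA, TopHat and the mm9 build, and the sources used here give no versions, read counter or annotation. For each population the authors deposited a table whose count columns hold unnormalized reads per gene. It also holds, as deposited by the authors and per the file headers, a log2 fold change and log2 CPM, a likelihood ratio score, and a p-value and FDR, none of which was used. Genotype and replicate number tied each column to its sample, with 0 columns left over. Tables of 19685 and 18904 genes were joined on 17893 shared IDs, and a current gene table held 15758 of the tested IDs and served for older symbols only. Some genes are not reported here.

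Genes of low count were removed by filterByExpr over the groups (edgeR 4.0.16, R 4.3.3), libraries scaled by TMM, and the interaction contrast of a 4-group model tested by the quasi-likelihood test with Benjamini-Hochberg adjustment at 0.05, over 16551 genes (biological coefficient of variation 0.145). The component changes come from that fit. CPM are from those factors. Log correlations between the libraries of a group were 0.972 to 0.99. At 3 counts, a count of 0 allows up to 0.603 CPM in LT-HSC and 0.252 CPM in MPP, and ratios on 1 to 3 counts have 95% exact binomial intervals; both cover counting error only. Libraries with the same replicate number shared a difference: deviations from group means correlated at 0.535 to 0.763 in all 6 pairs of groups over 12216 genes. The labels give the number only and state no pairing, and the main fit does not use it. The fit with the number as a block is given where it changes a call or a count by over 1.5 times.

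Alternatives were DESeq2 1.42.0, limma-voom (limma 3.58.1), other scalings and filters, thinning MPP, a 1.5-fold threshold and leaving out each library. Added after seeing the data was subtraction of the count per kb of 647 tested genes over 100 kb and under 1 CPM in MPP WT. The script was tested on simulated data. Named genes are Tet1, the 12 largest interactions in each direction, 10 with the larger effect in MPP and 10 with opposite effects (mean of at least 50 normalized counts), up to 4 called genes per list by size and the 4 Y-linked genes. The members and 42 lists were chosen with earlier results of these data known, so list counts are descriptions without a test. Span is gene start to end in the deposited tables.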

Additional observations from a re-analysis of the deposited data

Results flagged for a closer look

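The effects in the 2 populations differed by the test of the interaction itself in 3663 genes, and in 60 of them the component changes were opposite. The 10 named genes of that kind had fitted interactions of -6.20 (Igkv12-44), -9.49 (Ighv2-6), -5.38 (Igkv6-17), 3.98 (Ptprd), 5.90 (Ccr2), -5.74 (Igkv5-48), 3.96 (Mcc), 3.01 (Tex21), -4.20 (Sdc1) and -5.92 (Ighj3). For Ccr2, Igkv5-48 and Ighj3, with 1, 1 and 3 counts in a group, the fitted value depends on the prior count and is no bound.

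Genes listed in only 1 of the deposited tables were outside the test and also carried counts. The 1792 genes listed for LT-HSC alone summed to 1990 and 2577 counts in the LT-HSC WT libraries and to 18913 and 16427 in the KO libraries. The 1011 genes listed for MPP alone summed to 27964 and 23552 counts in MPP KO, against 19026 and 16780 in MPP WT.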

How the results depend on the processing

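Against 2256 positive and 1407 negative calls (3663 in all, 60 opposite), thinning MPP to LT-HSC depth gave 1445 positive, 2397 in all and 31 opposite. The replicate block gave 3632, 3265, 6897 and 411, the 1.5-fold threshold 1366, 385 and 1751, and scaling over abundant genes 926 negative. limma-voom gave 104 opposite. Subtracting the background gave 1000 positive, 2198 in all and 32 opposite, with abundant-gene scaling 1071, 2146 and 31, and with the block 2840 negative and 329 opposite. Leaving out 1 library gave 798 to 2521 positive, 334 to 1716 negative, 1132 to 4237 in all and 6 to 95 opposite. DESeq2 gave 3314 calls. The cause of each change was not tested, except that thinned and left-out fits hold fewer reads or samples. The sign of a called gene changed in 0 of the alternatives other than background subtraction, after which 127 positive calls had a negative estimate.

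Among named genes the sign turned with the background subtracted (then with the block, then with abundant-gene scaling) for Mcc (-4.54, -4.53, -4.58), Flt1 (-3.10, -3.13, -3.14), Lifr (-0.19, -0.19, -0.15), Uty (-4.61, -4.61, -4.66) and Mecom (-0.15, -0.15, -0.11), and for Gpr174 (-0.0024 alone and -0.034 scaled, the sign being that of a value near 0). With 1 library left out, Mecom, not called, ranged from -0.095 (without LT-HSC WT replicate 1) to 0.17, and Eif2s3y, not called, from -1.62 to 0.075 (without MPP KO replicate 1). Beyond the values printed with the results, the block changed no call of a gene named. LT-HSC depth, below that of MPP, limits genes with few counts there.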
